A study of Mus musculus with 6 samples.

Results

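The wild-type perichondrium baseline consisted of 3 RNA sequencing libraries out of 6 in the series. They were chosen by label alone, as the columns of the deposited count matrix that carry the perichondrium wild-type name, and are named here WT-596, WT-597 and WT-795 after the numbers in their titles, the order in which 3 values are given throughout. Per the labels, the tissue was perichondrium of limb bone, the genotype WT and the age postnatal day 4. The other libraries came from mice with Fbn1 deleted by Scx-Cre at the same age and entered no value given here. The labels used here do not give the strain, the limb or bone, the sex, any floxed or Cre allele that the wild-type mice carried, the meaning of the numbers, or whether a library was an animal or a pool. With a single group there was nothing to compare between conditions, and no test was run: each level is a mean ± SD over 3 libraries, and that spread may be technical.

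The perichondrium is the sheath of dense connective tissue around the cartilage of a growing bone, and it continues as periosteum along the bony shaft. Its outer layer is fibrous and its inner layer holds cells that can become cartilage or bone. It trades signals with the growth plate: Indian hedgehog from maturing chondrocytes acts on cells that carry the receptor Ptch1, parathyroid hormone-related protein (Pthlh) acts on Pth1r, and fibroblast growth factors, bone morphogenetic proteins and TGF-beta are further signals of this tissue. Fibrillin microfibrils, long threads built from the products of Fbn1 and Fbn2, store latent TGF-beta in the matrix. Tendon, muscle, bone marrow and vessels lie against the sheath.

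Total counts were 9055779 in WT-596, 10316017 in WT-597 and 8019248 in WT-795. Levels are CPM, counts scaled to a common library total with TMM factors, and 1 count was worth between 0.0973 and 0.138 CPM. Nuclear protein-coding genes took 63.4% ± 5.04 (SD, n = 3) of counts and the mitochondrial chromosome 6.15% ± 2.38. Lars2, a mitochondrial leucyl-tRNA synthetase, alone took 13.1% ± 1.28 of counts, with 104431, 139393 and 152257 CPM. The 16 other genes with a mitochondrial synthetase symbol had a median of 3.75 CPM and a highest mean of 18.3 CPM (Iars2), so the Lars2 value stood apart from its class. What its counts stem from was not tested, and it is left aside in the account of high genes. The libraries differed further in ways that touch the results. WT-597 held the most counts of muscle and red blood cell genes (2.29% and 5.30% of protein-coding counts). WT-795 departed from the others along GC content, with a median log2 deviation of -0.34 in the fifth of genes richest in GC, and along transcript length, with -0.25 in the fifth with the shortest transcripts. Of all detected genes, 31.6% were highest in WT-596, 30.6% in WT-597 and 37.8% in WT-795, and 21.6%, 36.3% and 42.1% were lowest there. In bulk tissue the number of cells of a type and the RNA per cell cannot be told apart. Spearman correlations over the 11821 detected genes, which share libraries and depth, were 0.966 for WT-596 with WT-597, 0.946 for WT-596 with WT-795 and 0.924 for WT-597 with WT-795.

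Of 22015 nuclear protein-coding genes, 11821 were detected, meaning at least 1 CPM in each of the 3 libraries, and 5367 had no count in any of them. A mean of at least 10 CPM was reached by 7056 genes, at least 100 CPM by 819 and at least 1000 CPM by 33. The 100 highest genes held 43.1% ± 3.01 of protein-coding counts, or 28.8% ± 3.09 when Lars2 and ribosomal protein genes were left out of the total. Of those ranked in the top 100 of a library, 71 were in the top 100 of every library and 134 in that of any.

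Collagens and other matrix genes led the profile. Col1a2, the alpha2 chain of type I collagen and the main fibre of bone, tendon and fibrous sheaths, measured 15965, 13741 and 17445 CPM. Col1a1, its alpha1 chain, measured 9706, 13428 and 7097 CPM. Col3a1, the collagen of fine reticular fibres, measured 7828, 7403 and 7164 CPM. The type III gene was thus almost level over the libraries, while Col1a1 was highest in WT-597 and lowest in WT-795, and Col1a2 ran the other way. Sparc, a collagen-binding glycoprotein of bone and connective tissue, followed with 8289, 7635 and 3936 CPM, and was low in WT-795. Postn, the matrix protein periostin named for the periosteum, measured 2531, 2679 and 2853 CPM and ranked 10 by mean CPM. Ibsp, the bone sialoprotein gene, ranked 15 with 1951 ± 202 CPM. Aspn, the small proteoglycan asporin, ranked 16 with 1947 ± 423 CPM, and Col12a1, a collagen that decorates type I fibres, ranked 17 with 1729 ± 250.4 CPM. Itm2a, a membrane protein known from cartilage and muscle differentiation, was the highest gene outside matrix, blood, muscle and housekeeping classes, at rank 13 with 2168, 1857 and 2538 CPM.

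**Figure D1:**
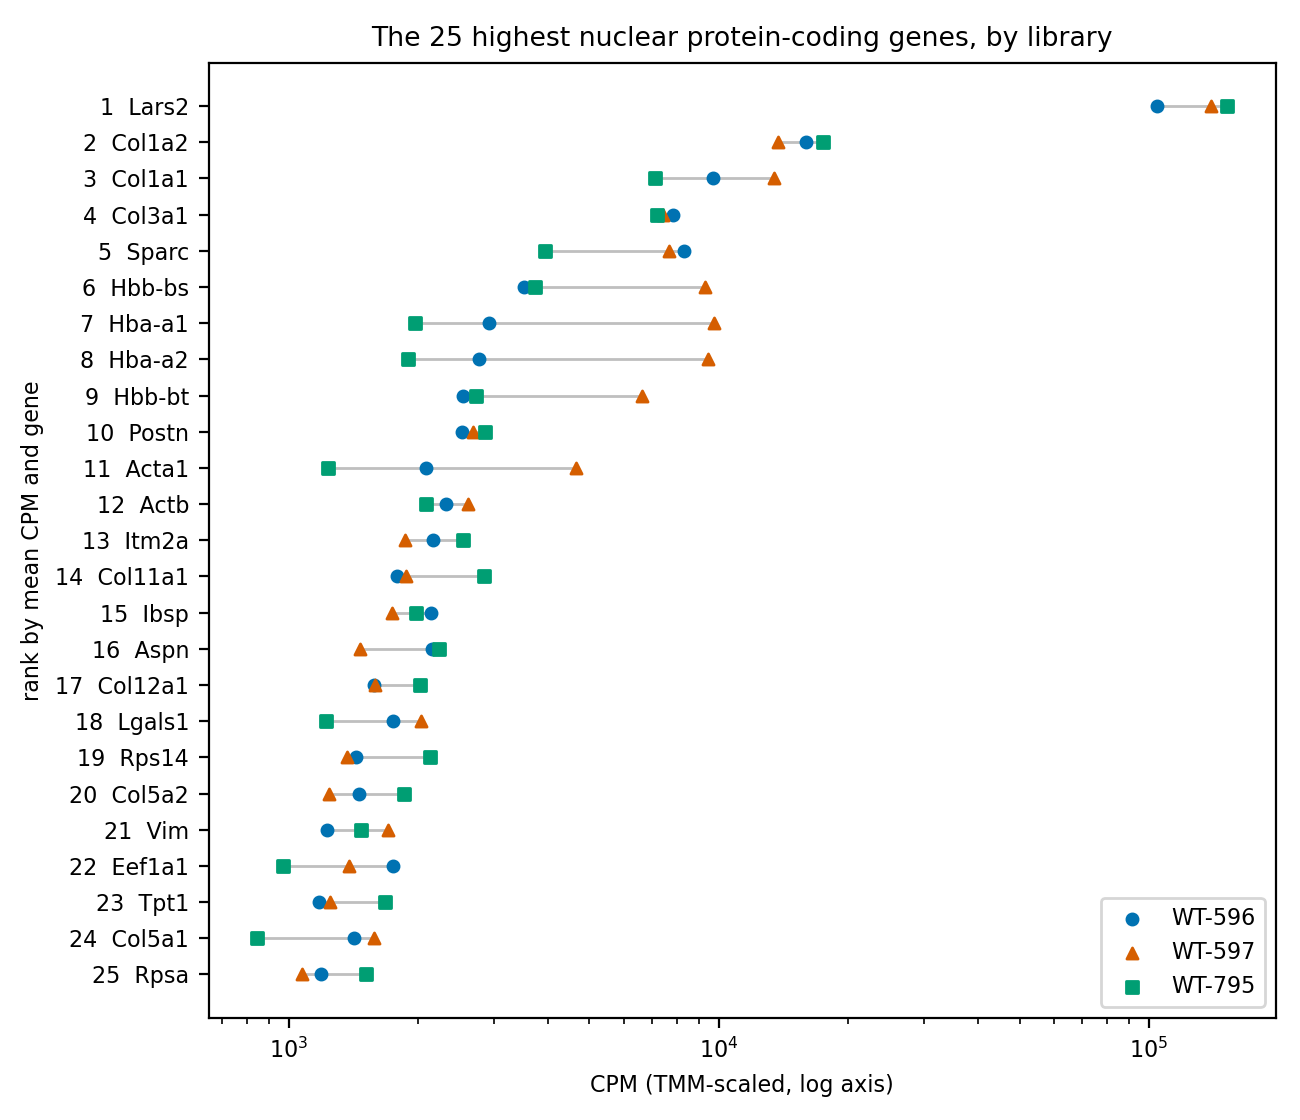
CPM on a log axis of the 25 nuclear protein-coding genes with the highest mean CPM, in rank order, with a point for each of the 3 wild-type libraries and a grey line over their range. Lars2 lies far above the rest, Col3a1 and Postn have narrow ranges, and the 4 globin genes and Acta1 lie far to the right in WT-597.

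Among these genes were also members of other tissues. The globin genes Hbb-bs, Hba-a1, Hba-a2 and Hbb-bt took ranks 6 to 9. Acta1, the skeletal muscle actin, took rank 11 with 2086, 4642 and 1235 CPM. All 5 were highest in WT-597, as were 30.6% of all detected genes. Hba-a1 and Hba-a2 are near-identical copies whose reads could not be told apart by the counts, so their separate values are uncertain.

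Counts rise with transcript length, so levels of different genes are compared as CPM per kb of merged exon length. By that measure the 25 highest genes were led, after Lars2, by the 4 globins, then Lgals1 (galectin-1, a secreted lectin of mesenchymal cells) at 1844 ± 451 CPM per kb, Sparc at 1748 ± 619.7 and Acta1 at 1728 ± 1154. Col1a1 stood at 1535 ± 485 and Col1a2 at 1265 ± 150.0 CPM per kb, with overlapping ranges. That order rests on the length used. Per kb of the longest transcript Col1a2 stood above Col1a1 in 3 of 3 libraries, at 2939 against 1699. Of the 25 highest genes per kb, 19 were the same under both lengths.

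The bases just before the start of transcription are shown for some matrix genes of the sheath and for 2 globins. A TATA element near the start is a known feature of many strongly used tissue-specific promoters. The genes shown do not follow rank: Tnc ranked 95 by mean CPM, while Ibsp, Aspn and Col12a1 ranked higher and are not shown. The share with the motif among the genes shown is therefore not that of high genes. The sequences are RefSeq's, build GRCm38.p6, 60 bases ending at the base before the annotated start, 5′ to 3′ on the gene's strand. The table lists a second start for Postn and for Tnc, which is not shown. Capitals mark TATAA where it falls between 40 and 16 bases before the start.
Col1a2, chr6:4505558-4505617, plus strand: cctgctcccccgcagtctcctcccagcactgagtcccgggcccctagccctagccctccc
Col3a1, chr1:45311478-45311537, plus strand: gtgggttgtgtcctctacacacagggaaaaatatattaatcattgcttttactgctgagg
Sparc, chr11:55420081-55420140, minus strand: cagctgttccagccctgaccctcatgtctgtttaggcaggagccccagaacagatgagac
Postn, chr3:54361047-54361106, plus strand: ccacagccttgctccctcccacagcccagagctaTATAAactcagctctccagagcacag
Tnc, chr4:64046937-64046996, minus strand: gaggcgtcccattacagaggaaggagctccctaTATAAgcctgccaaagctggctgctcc
Hbb-bs, chr7:103827929-103827988, minus strand: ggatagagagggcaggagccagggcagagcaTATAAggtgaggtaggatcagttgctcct
Hba-a1, chr11:32283612-32283671, plus strand: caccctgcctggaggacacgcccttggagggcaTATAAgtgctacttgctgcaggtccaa

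Postn and Tnc, the tenascin-C gene of tendon and perichondrium, carried the motif, and so did both globins shown. The starts shown for Col1a2, Col3a1 and Sparc did not have these letters in the window. Of the 100 highest genes by mean CPM, 69 had an entry in the promoter table and 11 of them (15.9%) carried TATAA on the gene's strand in that window. The 11 were the 4 globins, Postn, Vim, Ppia, Rps27, Rps18, Ttn and Tnc. The share was 2.46% of the 9272 detected genes with an entry and 4.93% of all 16546. On the other strand, where the motif reads TTATA, it was found in 3 of the 69 (4.35%), 1.08% of detected genes and 1.89% of all. In 1 of the 69 genes both were found, and the letters TATAA and TTATA can share bases. These are counts of letters and not of bound sites.

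Fibrillar collagens held 6.09% ± 0.295 of protein-coding counts, with 6.43%, 5.96% and 5.89% in the libraries. The list total thus varied little, although its members did not move together. All 11 fibrillar collagen genes were detected and 7 reached a mean of 100 CPM. Per kb, Col3a1 (760.5 ± 34.3 CPM per kb) lay above Col11a1 (170.1 ± 46.1), Col5a2 (158 ± 32.3) and Col5a1 (151 ± 45.3) with no overlap. The minor chains Col11a1, Col5a2 and Col5a1, which set the width of type I and II fibres, overlapped with each other. Col2a1, the main collagen of cartilage, measured 121, 82.3 and 149 CPM, or 12.7 ± 3.65 CPM per kb. Col1a1 exceeded it 113-, 229.8- and 66.9-fold per kb in the 3 libraries, and the ranges stayed apart with the longest transcript.

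Of 33 other collagens, 23 were detected, with 0.688% ± 0.0404 of protein-coding counts. Col12a1 led at 114 ± 16.4 CPM per kb, above its fibril-associated relative Col14a1 in 3 of 3 libraries (ratio 3.66 ± 0.315). The type VI genes encode chains of beaded filaments around cells and diverged between libraries. Col6a1 measured 367, 337 and 122 CPM and Col6a2 384, 442 and 179.8 CPM, both low in WT-795, while Col6a3 measured 514, 531 and 559 CPM. Col4a1, a chain of basement membranes, stood at 41.5 ± 2.97 CPM per kb and Col8a2 at 33.0 ± 1.42.

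All 31 genes of collagen folding and crosslinking were detected. Serpinh1, the collagen chaperone HSP47, measured 959, 868 and 522 CPM, and P4hb, a subunit of prolyl hydroxylase, 527, 405 and 533 CPM. Per kb Serpinh1 (320.5 ± 94.4) lay above P4hb (171 ± 25.2) in 3 of 3 libraries. Lox, the lysyl oxidase that crosslinks collagen and elastin, measured 766, 538 and 1054 CPM, and exceeded its relative Loxl2 5.61 ± 1.49-fold per kb. Lox was highest in WT-795, where Serpinh1 was lowest. Ppib, the proline isomerase cyclophilin B, gave 119 ± 6.33 CPM per kb, but its exons overlap those of Snx22 on the other strand, so part of its reads cannot be assigned.

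Of 26 proteoglycan genes 23 were detected, 9 reached 100 CPM and the median was 8.67 CPM per kb. The highest were small leucine-rich proteoglycans, which coat collagen fibres, although other genes of that class, such as Podn (0.639 CPM per kb) and Epyc (1.29), were low. Aspn measured 914, 620.5 and 947 CPM per kb. Lum (lumican) measured 339.6, 300.0 and 321 CPM per kb. Ogn (osteoglycin) measured 229, 141 and 356 CPM per kb and Dcn (decorin) 237, 179 and 219.7. Aspn thus stood 2.57 ± 0.452-fold above Lum and 3.88 ± 0.422-fold above Dcn, with no overlap under either length. Ogn overlapped with both Lum and Dcn in range. Fmod (fibromodulin, 119 ± 44.0 CPM per kb) and Bgn (biglycan, 89.6 ± 28.4) were lower, and both had their lowest value in WT-795.

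Microfibril and elastic fibre genes held 0.253% ± 0.0505 of protein-coding counts, and 28 of 29 were detected. Fbn2, the fibrillin most used in development, measured 123, 172 and 166 CPM. Fbn1 measured 125, 87.4 and 63.3 CPM. Per kb they stood at 11.6 ± 2.05 for Fbn2 and 7.57 ± 2.55 for Fbn1, with overlapping ranges: Fbn2 was higher in WT-597 and WT-795 and lower in WT-596. With the longest transcript Fbn2 was higher in 3 of 3 libraries, so the order of the 2 fibrillins depends on the length used. Of the microfibril-associated genes, 3 stood above both fibrillins, while Mfap1a (10.1 CPM per kb) lay below the mean of Fbn2 and Mfap3 (3.87) below both. Mfap2 measured 174, 158 and 111 CPM per kb, Mfap4 109, 73.3 and 59.2, and Mfap5 47.1, 57.2 and 32.6. Mfap2 exceeded Fbn1 16.9-, 22.0- and 21.3-fold and Fbn2 13.2 ± 5.05-fold per kb. Eln, the elastin gene, measured 26.0, 30.1 and 12.8 CPM per kb, and Ltbp1, a carrier of latent TGF-beta on microfibrils, 7.23, 6.29 and 7.44. All 4 of Mfap2, Mfap4, Mfap5 and Eln were lowest in WT-795, and so was Fbn1, while Fbn2 and Ltbp1 were not. Of the 28 detected genes of the list, 18 were lowest there, as were 42.1% of all detected genes.

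Of 57 matrix glycoproteins, 53 were detected, and the list held 2.82% ± 0.443 of protein-coding counts. After Sparc, the highest per kb were Ibsp (943 ± 97.7), Spp1 (osteopontin, 542 ± 70.6), Postn (309 ± 18.5) and Mgp (matrix Gla protein, an inhibitor of mineral, 304 ± 56.2). Ibsp exceeded Spp1 in 3 of 3 libraries, by 1.75 ± 0.177-fold. Fn1, the fibronectin gene, stood at 41.5 ± 3.27 CPM per kb. Postn exceeded Tnc 4.88 ± 0.452-fold.

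Among 47 matrix proteases and inhibitors, of which 41 were detected, an inhibitor led. Timp1, an inhibitor of matrix metalloproteinases, measured 216, 211 and 214 CPM, with a coefficient of variation (CV, SD over mean) of 0.0108, and exceeded Timp2 3.03 ± 1.25-fold per kb. Of the proteases, Ctsk (cathepsin K, which is also an osteoclast gene) led at 108 ± 26.0 CPM per kb, with Mmp14 (the membrane-bound collagenase) at 48.3 ± 4.09 and Mmp2 (gelatinase A) at 46.9 ± 22.0. Mmp2 measured 189, 212 and 73.4 CPM and was low in WT-795, whereas Mmp14 measured 271, 276 and 316.

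**Figure D2:**
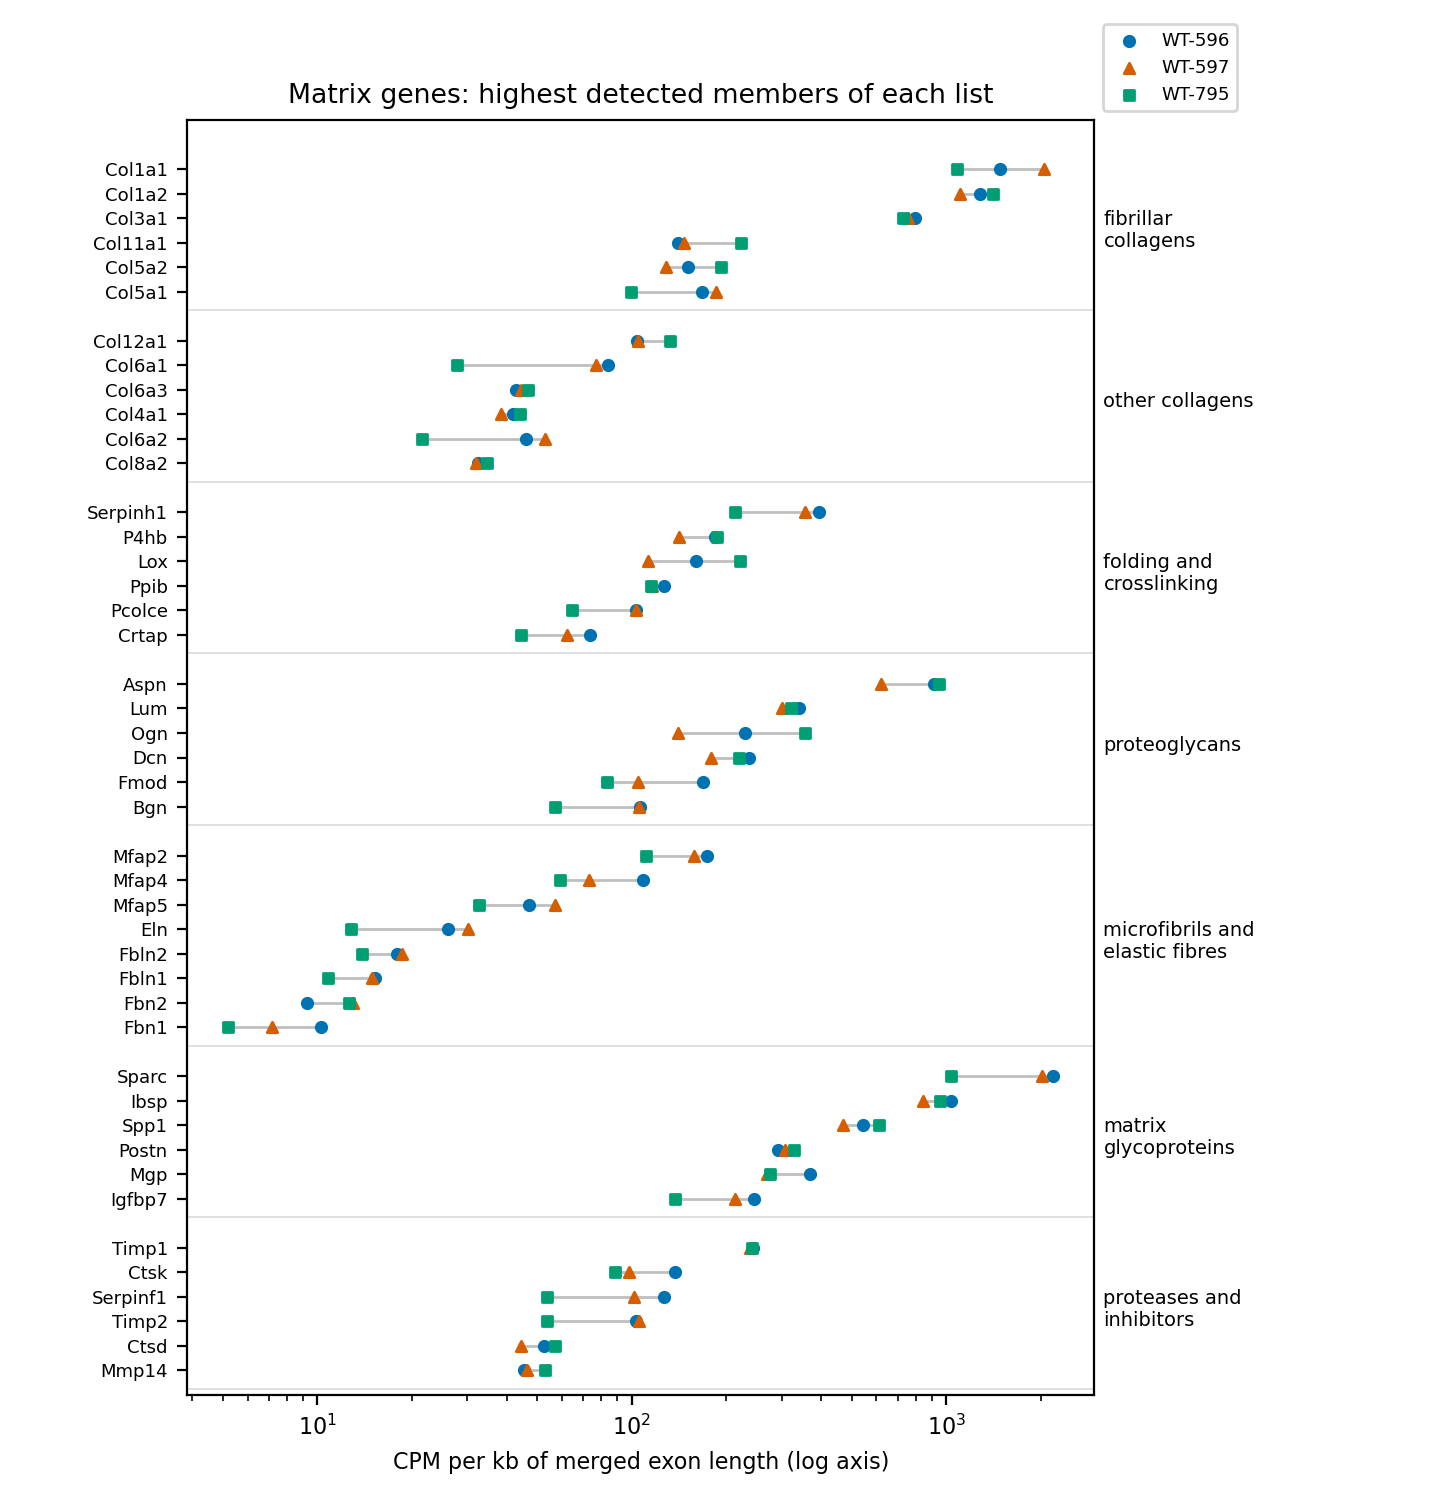
CPM per kb of merged exon length on a log axis for the 6 highest detected genes of each matrix list, with Fbn1 and Fbn2 added, and a point for each of the 3 wild-type libraries. Col1a1, Col1a2 and Sparc lie farthest right and Fbn1 and Fbn2 farthest left, and the WT-795 point lies left of the other points for Mfap2, Mfap4, Mfap5 and Eln.

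Of 30 ligands of the TGF-beta, BMP, activin and GDF families, 19 were detected, and only Tgfb2 reached a mean of 100 CPM. Tgfb2 measured 85.6, 115 and 119.9 CPM, Tgfb3 43.2, 40.5 and 24.7, and Tgfb1 27.8, 25.5 and 9.26. Per kb these are 18.5 ± 3.22 for Tgfb2, 10.7 ± 2.95 for Tgfb3 and 4.14 ± 2.00 for Tgfb1. Tgfb2 stood above both others with no overlap under either length. Tgfb3 stood above Tgfb1 in 3 of 3 libraries, but their ranges overlapped with the longest transcript, at 10.7 against 8.10. Bmp4 followed with 9.01, 7.79 and 7.44 CPM per kb, overlapping Tgfb3, and lay above Bmp2 by 1.60 ± 0.228-fold. Inhba, the activin A subunit, stood between them at 6.03 ± 0.636 CPM per kb. Among 16 secreted antagonists 11 were detected. Fstl1, a follistatin-like protein that binds BMP4, measured 933, 936 and 1005 CPM with a CV of 0.0429 and exceeded the next, Nbl1, in every library, while Nog (noggin) stood at 5.30 ± 1.98 CPM.

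Of 17 TGF-beta and BMP receptor genes, 15 were detected. Bmpr1a, the type I BMP receptor, measured 15.8, 13.8 and 22.2 CPM per kb. Tgfbr1 measured 11.8, 8.07 and 12.1, and Tgfbr2 9.53, 10.9 and 11.2. The ratio of Tgfbr1 to Tgfbr2, the 2 subunits of the signalling receptor, was 1.02 ± 0.253 with overlapping ranges. Tgfbr3, the betaglycan co-receptor that presents TGF-beta2, stood at 2.28 ± 0.0947 CPM per kb, below Tgfbr2 by 4.61 ± 0.251-fold.

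Of 21 FGF ligand genes, 9 were detected and all were low. Fgf18, which signals from perichondrium to cartilage, measured 4.17, 6.42 and 3.32 CPM, from 42, 66 and 24 counts. Fgf7 measured 9.04, 7.2 and 7.60 CPM and Fgf2 10.6, 8.46 and 12.4. Per kb Fgf18 led at 3.91 ± 1.35, apart from Fgf7 (2.45 ± 0.298) by merged exons and overlapping it by longest transcript. Fgf4 had no count in any library, which allows up to 0.415 CPM in the shallowest, at 3 counts. Among their receptors, Fgfr1 measured 14.1, 13.5 and 16.6 CPM per kb, Fgfr2 7.09, 5.26 and 8.27, and Fgfr3, the receptor of growth plate chondrocytes, 1.51, 1.60 and 1.41. Fgfr1 exceeded Fgfr2 2.18 ± 0.326-fold and Fgfr2 exceeded Fgfr3 4.61 ± 1.29-fold, with no overlap under either length.

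Igf1, the growth factor that mediates much of growth hormone action, measured 332, 226 and 426 CPM, and Igf2 88.8, 176 and 41.5. The pair ran in opposite order over the libraries: Igf1 was the higher per kb in WT-596 and WT-795, and Igf2 in WT-597. Igf2 had a CV of 0.669, and its ranges overlapped with those of Igf1. The binding proteins Igfbp3 (72.9 ± 7.55 CPM per kb), Igfbp6 (66.6 ± 29.1), Igfbp4 (65.0 ± 23.1) and Igfbp5 (51.7 ± 9.67) stood above both ligands by mean and overlapped with each other in neighbouring pairs. Igf2r, which clears IGF2, exceeded the signalling receptor Igf1r 5.39 ± 0.757-fold per kb.

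Of 34 WNT ligand and antagonist genes 20 were detected, and 3 antagonists led. Dkk3 measured 44.2, 33.3 and 47.0 CPM per kb, Wif1 40.7, 20.3 and 54.5, and Sfrp2 30.4, 20.3 and 23.3. The highest ligands were Wnt5a, a non-canonical WNT of limb mesenchyme, at 7.52, 8.04 and 8.42, and Wnt5b at 8.42, 5.79 and 6.04, which overlapped. Sfrp2 lay above Wnt5a with no overlap under either length, although some Sfrp2 reads may belong to an antisense gene that covers 16.1% of its exon length. Of 28 WNT, hedgehog and Notch receptors 27 were detected, led by Gas1, a hedgehog co-receptor, at 51.1, 42.7 and 35.1 CPM per kb, then Ryk at 12.5 ± 0.755 and Fzd1 at 11.3 ± 2.35.

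In the hedgehog and PTHrP loop, receptors were present and the ligands low. Ihh was not detected: it had 6, 2 and 6 counts, or 0.596, 0.195 and 0.829 CPM. Shh had no count, which allows up to 0.415 CPM in the shallowest library. Ptch1, which is both a hedgehog receptor and a hedgehog target gene, measured 95.6, 46.9 and 124 CPM, so WT-597 was low. Smo, the signal transducer, measured 52.6, 42.4 and 41.2 CPM, and Gli1, another target gene, 11.4, 9.44 and 7.32. Pthlh measured 6.65, 6.71 and 5.39 CPM. Its receptor Pth1r measured 135, 118 and 60.2 CPM and exceeded Pthlh 9.04 ± 2.58-fold per kb. Pth1r is also a gene of osteoblasts and of prehypertrophic cartilage. In the C-type natriuretic peptide system, which lengthens bones, Nppc (the peptide) measured 10.4, 4.18 and 6.36 CPM, and Ostn (osteocrin, which blocks peptide clearance) 31.4, 23.0 and 24.7. The signalling receptor Npr2 stood at 2.21 ± 0.350 CPM per kb and the clearance receptor Npr3 at 0.557 ± 0.151.

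Other secreted factors were higher. Ptn (pleiotrophin, a heparin-binding growth factor of perichondrium) measured 426, 441 and 499 CPM and led the 78 remaining ligands, 54 of them detected, at 133 ± 11.2 CPM per kb. It exceeded its relative Mdk (midkine) 2.59 ± 1.16-fold. Penk, the enkephalin precursor, stood at 58.3 ± 17.5 CPM per kb, Angptl2 at 56.3 ± 11.1 and Clec11a (osteolectin, a factor for bone-forming cells) at 38.3 ± 10.1. Penk, Mdk and Angptl2 overlapped in range.

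Of 45 receptor tyrosine kinase and related genes 39 were detected. Axl, the receptor of Gas6, stood at 24.5 ± 3.41 CPM per kb and Epha3, an ephrin receptor, at 24.4 ± 9.72, overlapping. Pdgfra, a marker of mesenchymal progenitors, measured 7.40, 6.20 and 8.49 CPM per kb and exceeded Pdgfrb, higher in pericytes, 1.56 ± 0.411-fold. Of 43 integrins and surface proteoglycans 39 were detected. Gpc3 (75.3 ± 20.8 CPM per kb), Gpc1 (70.8 ± 5.93), Itgb1 (63.5 ± 7.69) and Sdc2 (60.1 ± 5.80) led and each overlapped the next. Gpc1 shares 18.9% of its exon length with Ankmy1 on the other strand. Cdh11, the cadherin of mesenchyme and osteoblasts, measured 303, 235 and 361 CPM.

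**Figure D3:**
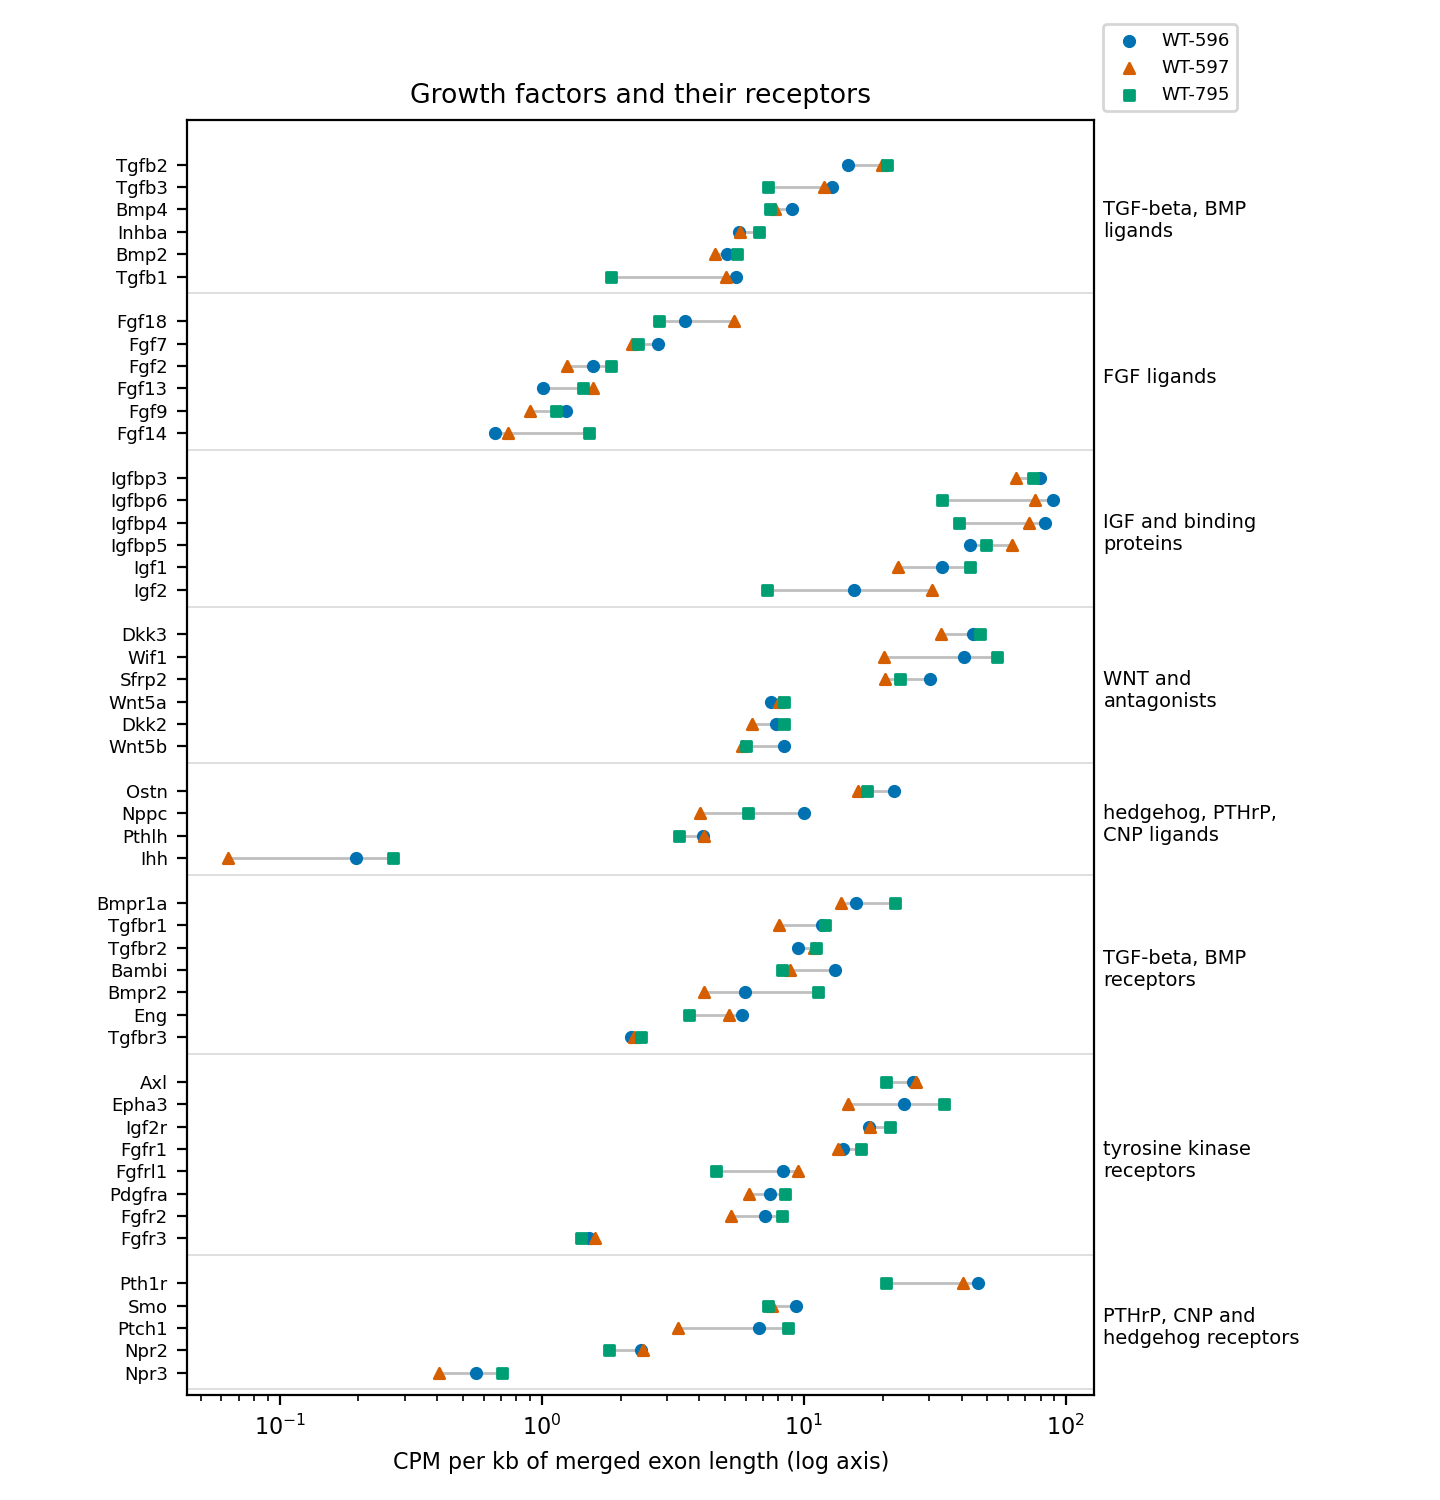
CPM per kb of merged exon length on a log axis for growth factor genes and their receptors, with a point for each of the 3 wild-type libraries. The 4 IGF binding proteins lie farthest right, Fgfr1, Fgfr2 and Fgfr3 follow each other without overlap, and Ihh lies far left of its receptor Ptch1.

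Of 528 genes with a transcription factor symbol of the families searched, 320 were detected and 18 reached a mean of 100 CPM. Per kb, the highest were Id3 (95.4, 63.4 and 51.3), an inhibitor of basic helix-loop-helix factors and a BMP target, Plagl1 (53.5, 33.0 and 81.6), an imprinted zinc finger factor, and Jund, an AP-1 factor whose level is uncertain because an antisense gene covers 52.6% of its exon length. Id1 (41.6 ± 6.62), Sox4 (37.8 ± 5.36, with 54.6% of its exon length shared with an antisense transcript) and Id2 (36.7 ± 1.94) followed. The secretory stress factors Xbp1 (34.6 ± 9.99), Atf4 (32.7 ± 3.70) and Creb3l1 (29.7 ± 16.1), of which the last is required for collagen secretion in bone, were also among the 15 highest, as were Snai2, Smad4, Klf6, Mef2c and Cbfb. Creb3l1 measured 95.5, 107 and 29.2 CPM and was low in WT-795. Cbfb, the partner of RUNX factors, measured 76.4, 77.4 and 75.2 CPM.

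Of 100 skeletal and limb transcription factor genes 86 were detected, and 11 reached a mean of 100 CPM. Prrx1, a factor of limb mesenchyme and periosteal progenitors, measured 215, 175 and 317 CPM. Runx2, the factor that starts bone formation, measured 97.7, 90.1 and 95.2 CPM with a CV of 0.0413, and Prrx1 exceeded it 1.99 ± 0.588-fold per kb. Scx, the tendon factor whose Cre line is used elsewhere in this series, measured 33.2, 43.8 and 23.8 CPM. Sox9, the cartilage factor, measured 30.3, 32.6 and 57.6 CPM, highest in WT-795, and exceeded its partner Sox6 6.39 ± 2.02-fold per kb. Scx lies within Bop1 on the opposite strand, so its reads may not be separable from those of that gene.

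Limb identity genes differed. Tbx4, the T-box factor of the hindlimb, measured 20.5, 14.6 and 18.0 CPM, and Pitx1, also a hindlimb factor, 27.4, 24.9 and 13. Some Pitx1 reads may belong to an antisense gene that covers 6.21% of its exon length. Tbx5, the forelimb factor, was not detected, at 0.199, 0.486 and 0.415 CPM from 2, 5 and 3 counts. All 3 libraries therefore carried the hindlimb genes and little of the forelimb gene, a point the labels, which name only limb bone, do not state. Of 39 Hox genes 11 were detected, with a summed level of 112 ± 2.90 CPM that varied little. Paralogue group 10 held the most, at 50.9 ± 5.38 CPM, followed by group 9 at 21.2 ± 2.44, while groups 11 and 13 held 8.94 ± 2.60 and 4.10 ± 2.21. Hoxa10 measured 32.3, 33.4 and 42.6 CPM and Hoxc10 15, 14 and 13.5, and per kb Hoxa10 was higher in 3 of 3 libraries. The 2 genes of group 12 had no counts, and Hoxd11 had 4, 4 and 2.

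**Figure D4:**
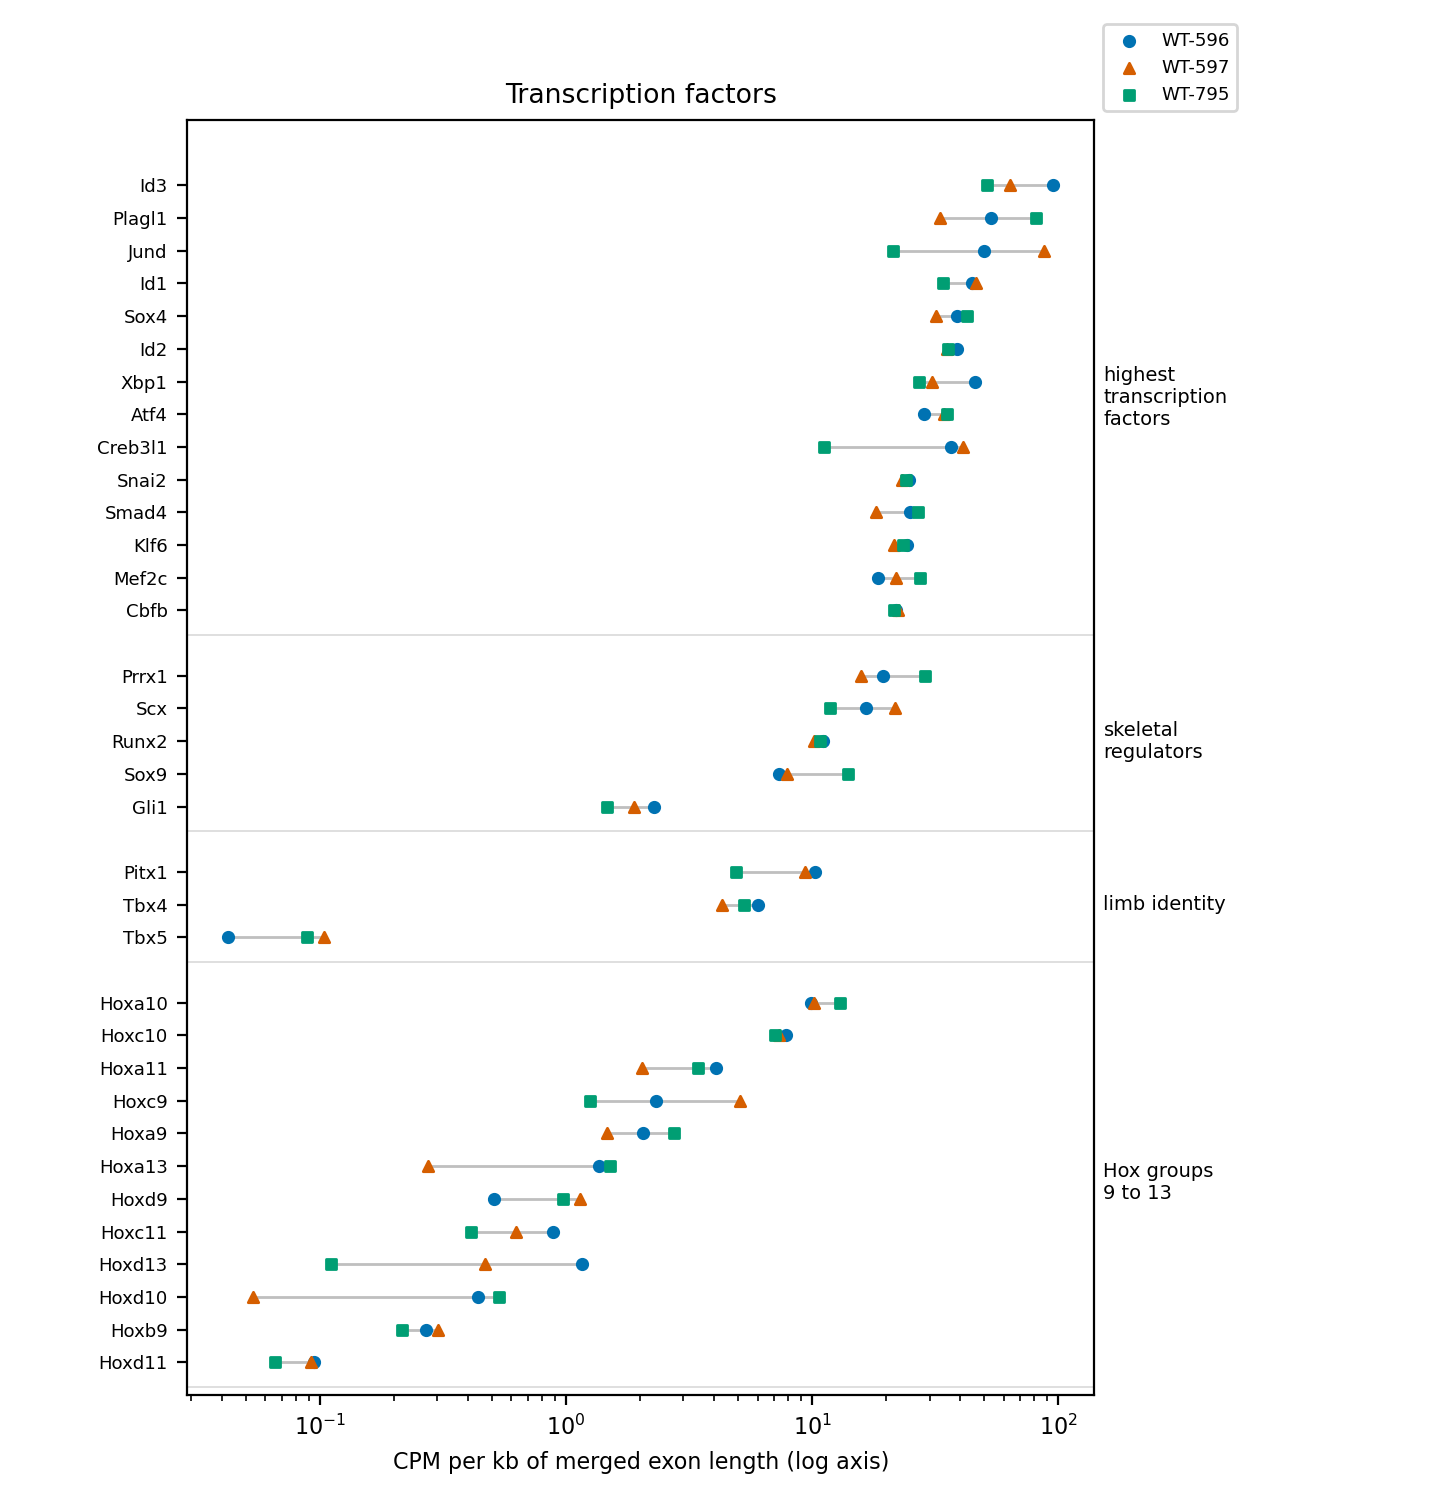
CPM per kb of merged exon length on a log axis for 14 of the 15 highest transcription factor genes, 5 skeletal regulators, 3 limb identity genes and Hox genes of groups 9 to 13 with counts (Hoxb13, Hoxc13 and group 12 are left out), with a point for each of the 3 wild-type libraries. Tbx5 lies far left of Tbx4 and Pitx1, and Hoxa10 and Hoxc10 lead the Hox genes.

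All 30 listed genes of perichondrium and periosteum were detected, with 1.58% ± 0.216 of protein-coding counts. Of all 22015 nuclear protein-coding genes, 11821 were detected. All 20 endothelial and all 18 macrophage genes were detected too, so detection alone cannot check the labelled tissue. The perichondrium list is led by Aspn, Postn and Ogn and includes Ly6a (a progenitor surface marker, 78.1 ± 26.7 CPM), Cd34 (86.5 ± 21.8) and Thy1 (14.9 ± 2.89). These genes are also used by other connective tissues, and 4 of them are on the tendon list. Of 25 tendon and ligament genes, 24 were detected. Tnmd, the tendon membrane protein tenomodulin, measured 227, 178 and 272 CPM, Thbs4 71.2, 95.8 and 52.9, and Mkx, a tendon factor, 22.0, 16 and 23.9. The gene 1500015O10Rik, also known as Ecrg4, measured 335, 149.8 and 383 CPM.

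Of 20 osteoblast and osteocyte genes, 18 were detected, with 2.33%, 2.57% and 1.73% of protein-coding counts, most of it from Col1a1. Alpl, the alkaline phosphatase of mineralizing cells, measured 196, 189 and 125 CPM, and Sp7, the osteoblast factor osterix, 38.8, 36.8 and 23.4. Bglap, the osteocalcin gene of mature osteoblasts, measured 54.2, 33.6 and 14 CPM, and its near-identical neighbour Bglap2 50.2, 33.3 and 15.5, so that their separate values are uncertain. Ifitm5, a membrane protein of osteoblasts, measured 83.0, 66.6 and 23.6 CPM. Dmp1, a gene of early osteocytes, measured 37.6, 52.6 and 55 CPM. Thus Bglap, Bglap2 and Ifitm5 were highest in WT-596 and lowest in WT-795, and Dmp1 was not. Osteoclast genes held 0.0540% ± 0.0153, with 7 of 12 detected: Ctsk, Mmp9 (104, 72.9 and 61.3 CPM) and Acp5 (54.2, 49.5 and 26.5) led, while the fusion gene Dcstamp and the calcitonin receptor gene Calcr were not detected.

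Of 27 chondrocyte genes, 26 were detected, with 0.430%, 0.388% and 0.572% of protein-coding counts, and, when Col11a1, a gene shared with fibrous tissue, was left out, 0.132%, 0.106% and 0.126%. As a share of protein-coding counts, WT-795 was thus highest with Col11a1 and WT-596 without it. That total includes Lars2, which was higher in WT-795 than in WT-596, so the order without Col11a1 may rest on the denominator. The order with Lars2 also left out of the total was not tested. In CPM, the median log2 deviation of the detected chondrocyte genes was -0.005, -0.21 and 0.29, highest in WT-795. Acan, the main proteoglycan of cartilage, measured 108, 143 and 101 CPM. Col9a1, a cartilage collagen, measured 19.4, 10.8 and 33.6 CPM, and Matn1 1.09, 0.584 and 1.93. Of the 26 detected, 14 were highest in WT-795 and 12 lowest in WT-597, as were 37.8% and 36.3% of all detected genes. Hypertrophic genes were 9 of 10 detected, all but Ihh. The list shares 5 genes with the osteoblast list, its highest member Ibsp among them, so it is not particular to hypertrophic cartilage. Col10a1, the collagen of hypertrophic cartilage, measured 48.0, 18.5 and 45.0 CPM, and Mmp13, a collagenase of that zone and of osteoblasts, 114, 55.6 and 90.1. None of the 9 was highest in WT-597, as were 30.6% of all detected genes.

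Skeletal muscle and red blood cell genes separated the libraries. The muscle list held 1.07%, 2.29% and 0.728% of protein-coding counts, and without WT-597 the mean was 0.901%. Of 38 genes, 35 were detected, and 34 of those were highest in WT-597, as were 30.6% of all detected genes. Mylpf, a fast myosin light chain, measured 711, 1586 and 654 CPM, Ckm, the muscle creatine kinase, 271, 521 and 124, and Tnnt3, a fast troponin, 234, 696 and 103. The median deviation of the detected members from their 3-library mean was -0.16, 0.96 and -0.83 on the log2 scale. Erythroid genes did likewise: 1.97%, 5.30% and 1.62% of protein-coding counts, with all 8 detected members highest in WT-597. Alas2, the heme synthesis enzyme of red cell precursors, measured 25.2, 60.3 and 14.2 CPM. Of 14 adipocyte genes 6 were detected, and 4 of the 6 were highest in WT-597, as were 30.6% of all detected genes. Pparg, Cidec, Plin4 and Cfd were among those not detected, and Lep and Ucp1 had no count. Car3, which muscle also uses, measured 178, 366 and 116 CPM, and Adipoq 8.74, 11.2 and 1.38. The part of muscle, blood or fat in any perichondrial value was not tested.

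All 20 endothelial genes were detected, with 0.0571% ± 0.00611 of protein-coding counts. Pecam1 measured 44.0, 50.2 and 53.5 CPM, and Plvap, a protein of fenestrated vessels, 44.6, 40.4 and 11.6. Pericyte and smooth muscle genes held 0.132% ± 0.0264, led by Acta2 (144, 168 and 61.3 CPM) and Rgs5 (247, 140.0 and 252). All 18 macrophage genes were detected at 0.0852%, 0.0608% and 0.0480%, with Lyz2 at 113, 62.3 and 39.4 CPM. Of 12 mast cell genes 7 were detected, among them the proteases Tpsb2 (82.0, 64.3 and 27.1 CPM) and Cma1 (71.0, 51.8 and 24.7). Other mast cell genes, such as Fcer1a (3, 5 and 0 counts), Ms4a2 (3, 9 and 5) and Hdc (12, 17 and 3), were not detected. Of 13 neutrophil genes 2 were detected, S100a9 (13.9 ± 4.07 CPM) and S100a8 (10.9 ± 3.06), and of 10 measured lymphoid genes none, with Cd3e at 3, 0 and 2 counts. Of 16 epidermal genes 2 were detected, with Krt5 at 5.92 ± 3.20 CPM, and Krt14 had no count. Schwann cell genes were led by Pmp22 (204 ± 13.2 CPM), a gene of many mesenchymal cells.

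**Figure D5:**
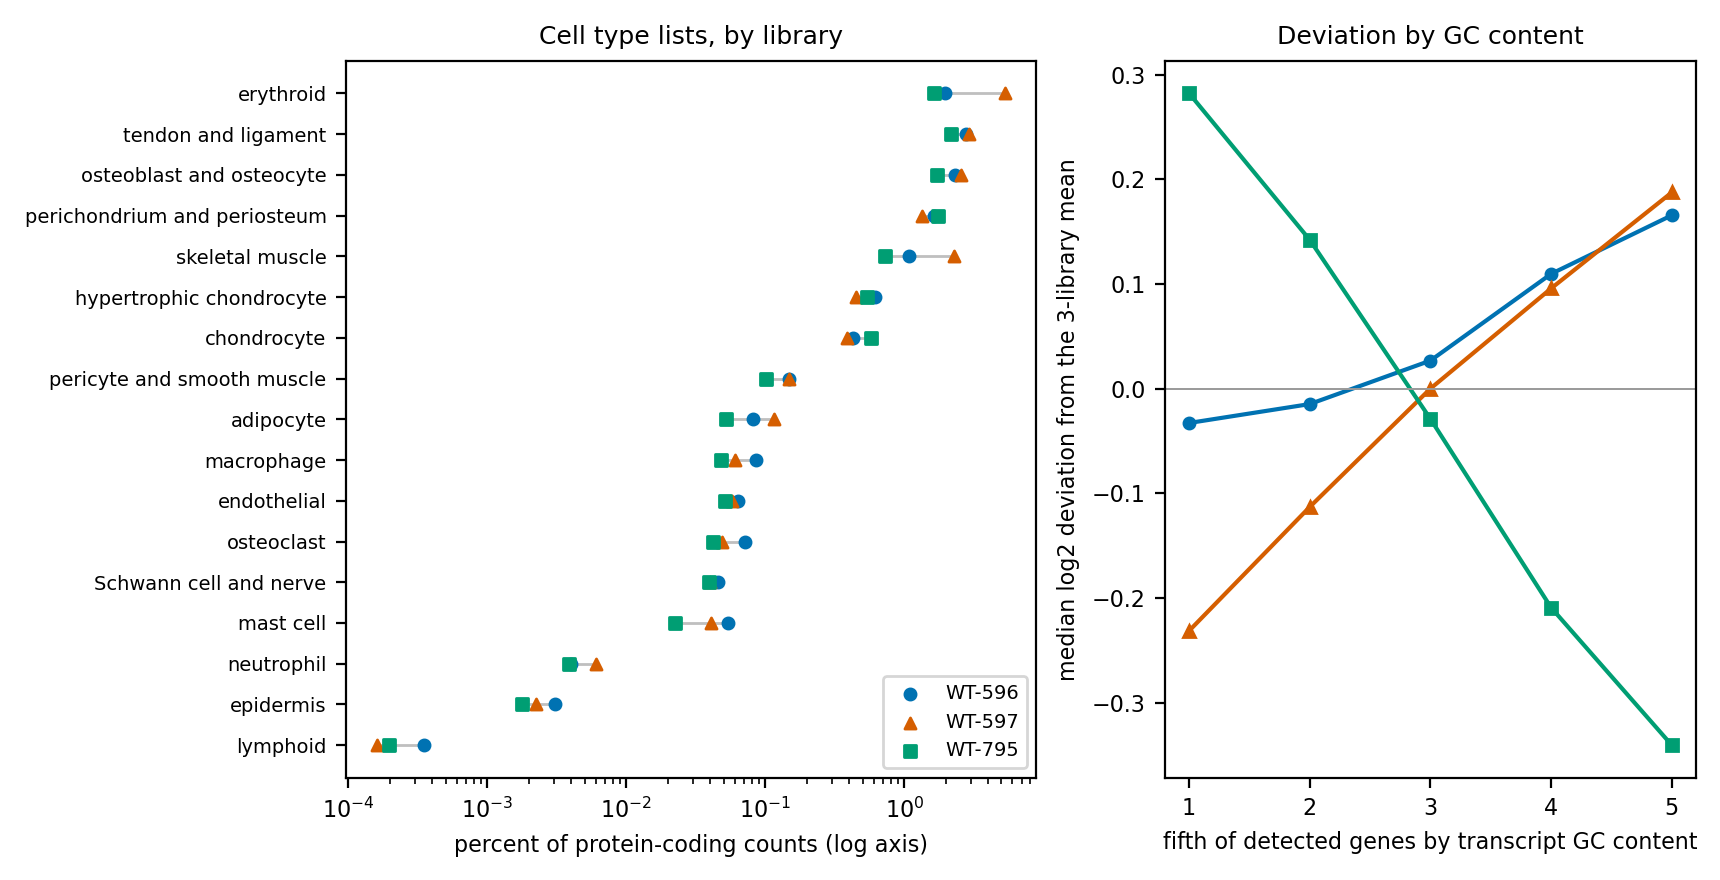
Left, percent of protein-coding counts on a log axis held by each cell type list in the 3 wild-type libraries, with WT-597 far right for the erythroid and skeletal muscle lists. Right, median log2 deviation of detected genes from their 3-library mean in 5 equal groups by transcript GC content, where WT-795 runs from 0.28 down to -0.34 and WT-597 from -0.23 up to 0.19.

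The median CV of detected genes was 0.222 (quartiles 0.139 and 0.318), counting alone would give a median of 0.0893, and edgeR's common biological coefficient of variation was 0.272. Of 4474 genes with a mean of at least 20 CPM, the 20 with the highest CV were all highest in WT-597. Of these, 8 were on the muscle list and 2 on the erythroid list, led by the myosin genes Myh2 (16.8, 70.8 and 10.5 CPM) and Myh8 (132, 562 and 89.8). Rabep2 was also among them, and its exons overlap those of the muscle calcium pump gene Atp2a1 on the other strand. Among the 200 with the highest CV, 122 were highest in WT-597, 49 in WT-795 and 29 in WT-596. Of all detected genes, 30.6%, 37.8% and 31.6% were highest in WT-597, WT-795 and WT-596. The steadiest genes were Adgrl2 (23.0, 23.0 and 22.9 CPM), Plpp1, Glg1, Rab12, Brd2, Capn6 (238, 236 and 234 CPM), Kifap3, Gorasp2, Pdxdc1 and Npnt (65.4, 66.6 and 66.5 CPM, an integrin ligand of basement membranes). Of these, Plpp1, Gorasp2 and Pdxdc1 share exon sequence with a gene on the other strand.

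WT-795 also differed along GC content and transcript length. In the fifth of detected genes with the lowest transcript GC content, up to 43.6%, the median log2 deviation was -0.03, -0.23 and 0.28. In the fifth with the highest, from 55.3%, it was 0.17, 0.19 and -0.34. Spearman's rho between GC content and deviation over 11810 genes, which are not independent, was 0.288, 0.466 and -0.582. In the fifth of detected genes with the shortest transcripts the median deviation was 0.11, 0.14 and -0.25, and in the fifth with the longest -0.06, -0.13 and 0.21. Spearman's rho with length was -0.254, -0.281 and 0.394. The matrix lists did not all follow the GC trend: in WT-795 the fibrillar collagens, with a median GC content of 58.0%, deviated by 0.16, and the proteoglycans, with 43.7%, by -0.20. Among genes named above, Col1a1 (58.9% GC), Col6a1 (56.7%), Eln (58.8%), Pth1r (60.4%) and Creb3l1 (59.5%) were low in WT-795, as were Sparc (52.5%) and Bgn (51.2%), while Ogn (36.3%) was high and Postn (36.3%) level. The part of GC content or length in these values was not tested. After removal of the median trend in 5 groups by GC content, an adjustment chosen after seeing the data, the median CV was 0.187. Without WT-795 and without that adjustment the median CV was 0.138. That value rests on fewer libraries and is not directly comparable with the others.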

How the data were processed

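RNA sequencing counts per gene of the 3 wild-type perichondrium libraries were analysed, as deposited by the authors: whole-number read counts for 55536 gene identifiers, not normalized. Per the submitters' processing notes the build was GRCm38.p6 with GENCODE M21, and DESeq2 is named there with no version. No source used here gives the aligner, the treatment of reads that match several genes or the use of strand, so overlapping and near-identical genes are uncertain. Per the labels' protocols, amplification used a kit that does not mark strand.

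CPM was computed with TMM factors over the 3 wild-type libraries (edgeR 4.0.16, R 4.3.3, Python 3.11.15), and divided by merged exon length in kb to compare genes. Genes are said to lie apart where their ranges over the 3 libraries do not overlap. Depth ranged from 8019248 to 10316017 counts, and a count of 0 allows up to 3 counts, for counting error only. Scripts were tested on simulated data.

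Named were the 25 highest genes, up to 6 of each of 40 lists and their defining members, the 15 highest transcription factors, the 20 most and 10 least variable genes from 20 CPM, and fixed skeletal genes. Relatives named beside these (such as Loxl2, Col14a1, Igf1r, Pdgfrb, Sox6 and Tnc) were chosen after their values were seen. The members and lists were chosen with earlier results of these data known. A few genes that this rule would name are not reported here.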

Additional observations from a re-analysis of the deposited data

How the results depend on the processing

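Of 44 alternative values, 33 stayed within 1 SD (counts of genes within 1.5 times) and 11 moved further. Median CV was 0.138 without WT-795, and between 0.138 and 0.224 when each library was left out in turn. These CVs rest on fewer libraries than the main value and are not directly comparable with it. With all counts as the denominator, the 100 highest genes held 27.3%, collagens 4.30% (6.78% in the main setting) and chondrocyte genes 0.291%. Without Lars2 and ribosomal protein genes these were 28.8%, 9.21% and 0.633%. As shares of CPM per kb, collagens held 2.27%, muscle genes 2.41% and chondrocyte genes 0.173%. The median level of the named and listed genes was 5.76 CPM per kb of merged exons and 7.34 per kb of the longest transcript. Leaving out each library gave between 11964 and 12304 detected genes, 41.9% to 44.8% for the 100 highest genes, 6.59% to 6.88% for collagens, 0.901% to 1.68% for muscle and 0.409% to 0.501% for chondrocyte genes. Muscle genes held 1.15% without those whose exons overlap another gene, an alternative chosen after seeing the data. No paired analysis was possible because the libraries form 1 group and no test was run. With 3 libraries no single library could be checked as an outlier.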

Other observations

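Imprinted genes can be read from 1 parental copy, and many are high in growing tissues. All 15 measured genes of the imprinted growth list were detected, with 0.966% ± 0.0751 (SD, n = 3) of protein-coding counts. The highest member by CPM was Dcn, and without it the share was 0.770% ± 0.0412. Gnas, also listed, shares 13.1% of its exon length with Gm20721 on the other strand. The counts do not show which parental copy was read in this tissue. Mest measured 1272, 1109 and 1322 CPM, and part of its exon length is shared with Copg2. Cdkn1c, an inhibitor of the cell cycle, measured 526, 581 and 663 CPM, and Peg3 599.8, 480.3 and 889. An antisense gene covers 30.7% of the exon length of Cdkn1c. Dlk1, a membrane protein of progenitors and of muscle, measured 219.9, 352 and 134 CPM and was highest in WT-597. The imprinted RNA H19 measured 1568, 2425 and 1471 CPM, again highest in WT-597.

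All 35 cell cycle genes were detected. Of these, 23 were highest in WT-795, as were 37.8% of all detected genes. The list had a median GC content of 47.4% and a median log2 deviation of 0.21 in WT-795, where genes of low GC content were raised as a whole, by medians of 0.28 and 0.14 in the lowest 2 of 5 groups by GC content. The part of GC content in this count was not tested. Mki67, a marker of dividing cells, measured 36.4, 48.4 and 85.9 CPM, and Top2a, a topoisomerase of replicating cells, 44.4, 56.7 and 82.8. Cdk1 measured 35.9, 36.4 and 32.7 CPM and did not share that order. Of 33 immediate early and heat shock genes, some of which can rise during handling, 30 were detected. Fos measured 10.5, 13.8 and 6.63 CPM and Fosb 0.298, 1.36 and 0.553. Hspb1, a small heat shock protein abundant in muscle, measured 48.1, 105 and 14.9 CPM. Ddx3y, a gene of the Y chromosome, measured 119, 81.9 and 154 CPM, while Xist, which silences an X chromosome in females, was at 4, 2 and 1 counts.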
